A study of Mus musculus with 9 samples.

Results

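Heparan sulfate is a sulfated sugar chain carried by proteins of the cell surface and of the matrix around cells. The genes examined here make the chain, edit it or encode the cell-surface proteins that carry it. They were given as a list of 35 genes. Among the probe sets that the array's annotation assigns to a gene alone, the one brightest on average across the 9 arrays stood for that gene. A probe set is the group of probes on the array that together report 1 transcript. Of the 35 genes, 33 had such a probe set and 30 passed the filter on low values (3 or more arrays with log2 expression of 5 or higher), out of 15235 genes tested. Xylt1 and Ndst1 had none and were not analysed here. Hs3st3a1, Sulf1 and Gpc2 lay below 5 on all 9 arrays and were not tested. The brightest probe sets of B4galt7, Hs3st2, Sulf2 and Sdc1 have names that mark possible cross-hybridisation (x_at), as does that of Pxylp1, a related gene described below.

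The samples were mouse pancreatic cancer cells of the line 170#3, of mixed C57BL6, FVB and 129Sv background, grown as a monolayer in DMEM with serum. There were 3 groups of 3 arrays: cells stably transfected to express beta-catenin, cells stably transfected to express ICAT, and control cells. Beta-catenin is the co-activator of the Wnt pathway, and ICAT inhibits the pathway by keeping beta-catenin from TCF factors, so the design asks which transcripts differ when the pathway's co-activator or its inhibitor is added. The sources used here do not give the promoter of each construct, what the control cells carried, or whether each group was 1 clone or a pool. The arrays are described as independent or biological replicates, but nothing says that they came from separate transfections, so p-values measure the spread between these samples only. All levels below are log2 expression, and a log2 difference of 1 is a doubling.

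Arrays of a group correlated at 0.994 or above over 45037 probe sets, and the median SD of a gene was 0.0746 in beta-catenin, 0.121 in ICAT and 0.0567 in control cells. Ctnnb1, the gene of beta-catenin, was 0.20 above control in beta-catenin cells and 0.19 above control in ICAT cells (limma, adjusted p = 0.0353 and 0.0364). Ctnnbip1, the gene of ICAT, was 0.14 above control in both and was not called (adjusted p = 0.208 and 0.189). The array reads the 3′ part of transcripts, which a transfected coding sequence can lack, so neither value checks a construct. Of 9 measured pancreatic ductal and epithelial markers, 7 lay at 5 or above on all beta-catenin arrays, 7 on all ICAT arrays and 7 on all control arrays, and Cdh1, the gene of E-cadherin, was below 5 on all 9. The summed linear level of these markers was 1119 to 1156 in beta-catenin, 1509 to 1853 in ICAT and 1123 to 1190 in control cells. Of 12 fibroblast and mesenchymal markers, 9 lay at 5 or above on all arrays of each group, with summed levels of 24016 to 24579 in beta-catenin, 42537 to 46235 in ICAT and 32236 to 33150 in control cells. In ICAT against control, 4 of 7 tested epithelial and 7 of 10 tested mesenchymal markers were called higher, where 18.7% of all genes tested were. In beta-catenin against control, 0 of the epithelial markers were called, and 3 mesenchymal markers were called higher and 3 lower. All genes tested had 19.6% called higher and 15.4% lower there. Ptprc and Itgam of the leukocyte markers, Cdh5, Tek and Vwf of the endothelial markers and Ptf1a of the acinar markers were below 5 on all arrays, and the summed levels of those 3 lists lay between 161 and 474 on every array. In cultures as in tissue, fewer cells of a type and less RNA per cell cannot be told apart, and the part of these marker differences in the results below was not tested.

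Synthesis of the chain starts on a serine of a core protein, where a short linker of xylose, galactose and glucuronic acid is built. Exostosins then add glucuronic acid and N-acetylglucosamine in turn, and the growing chain is modified in the Golgi: N-deacetylase/N-sulfotransferases exchange acetyl for sulfate, an epimerase turns glucuronic into iduronic acid, and sulfate is added at the 2-O, 6-O and 3-O positions. The pattern of sulfates decides which fibroblast growth factors, chemokines, Wnts and other ligands bind. Outside the cell, sulfatases of the Sulf family take 6-O sulfates off again and heparanase cuts the chain.

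Of the 30 tested genes, 16 were called in beta-catenin against control cells, 11 higher and 5 lower, against a background of 34.9% of all genes tested (19.6% higher and 15.4% lower). In ICAT against control cells 14 were called, 10 higher and 4 lower, against a background of 37.2% (18.7% higher and 18.5% lower). In beta-catenin against ICAT cells 11 were called, 6 higher and 5 lower, against 40.4% (22.5% higher and 17.9% lower). A gene was called at a Benjamini-Hochberg adjusted p under 0.05 in limma's moderated test over all genes. The shares of 53.3%, 46.7% and 36.7% called were above the background in both comparisons with control and below it between the lines. With a filter of log2 7 on 3 arrays, 17, 14 and 14 of 23 listed genes were called, against 5058, 5510 and 5789 of 9904 genes. The share between the lines was then slightly above the background. It was also above it in other alternatives, among them array weights (15 of 30, against 6673 of 15235 genes) and median centring (13 of 30, against 5830 of 15217 genes).

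Of the 30 genes, 5 (16.7%) were called with at least a 2-fold difference in beta-catenin against control cells, where the background was 4.62%. The same held for 3 genes (10%) in ICAT against control (background 2.94%) and for 4 (13.3%) in beta-catenin against ICAT (background 3.97%). The median size of the log2 difference was 0.26 for the 30 genes and 0.15 for all genes in beta-catenin against control, and 0.17 against 0.15 in ICAT against control. With the sign kept, the medians were 0.087 for the 30 genes and -0.026 for all genes in beta-catenin cells, and 0.0035 and -0.011 in ICAT cells. The 3 beta-catenin arrays lay wholly above or below the 3 control arrays for 22 of the 30 genes, with a background of 54.1%. Differences of at least 1.5-fold were called for 7 genes in each comparison, with backgrounds of 11.2% in beta-catenin against control, 9.89% in ICAT against control and 12.1% in beta-catenin against ICAT. The count of genes with separate arrays was 16 for ICAT against control (background 46.2%) and 16 for beta-catenin against ICAT (background 47.6%).

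The 11 genes called higher in beta-catenin against control were Ugdh, Ext1, Ext2, Glce, Hs2st1, Hs6st1, Hs6st2, Sulf2, Hpse, Sdc2 and Gpc4, and the 5 called lower were B4galt7, Hs6st3, Hs3st1, Sdc1 and Gpc1. The 10 called higher in ICAT against control were Ugdh, Ext1, Ext2, Extl2, Hs6st2, Sulf2, Hpse, Sdc2, Sdc4 and Gpc4, and the 4 called lower were B4galt7, Extl3, Ndst2 and Hs3st1. Both comparisons use the same 3 control arrays, so calls that recur in them are not independent of each other. Xylt2, B3gat3, Extl1, Ndst3, Ndst4, Hs3st2, Hs3st3b1, Sdc3, Gpc3 and Gpc6 did not pass the test against control in either line.

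**Figure D1:**
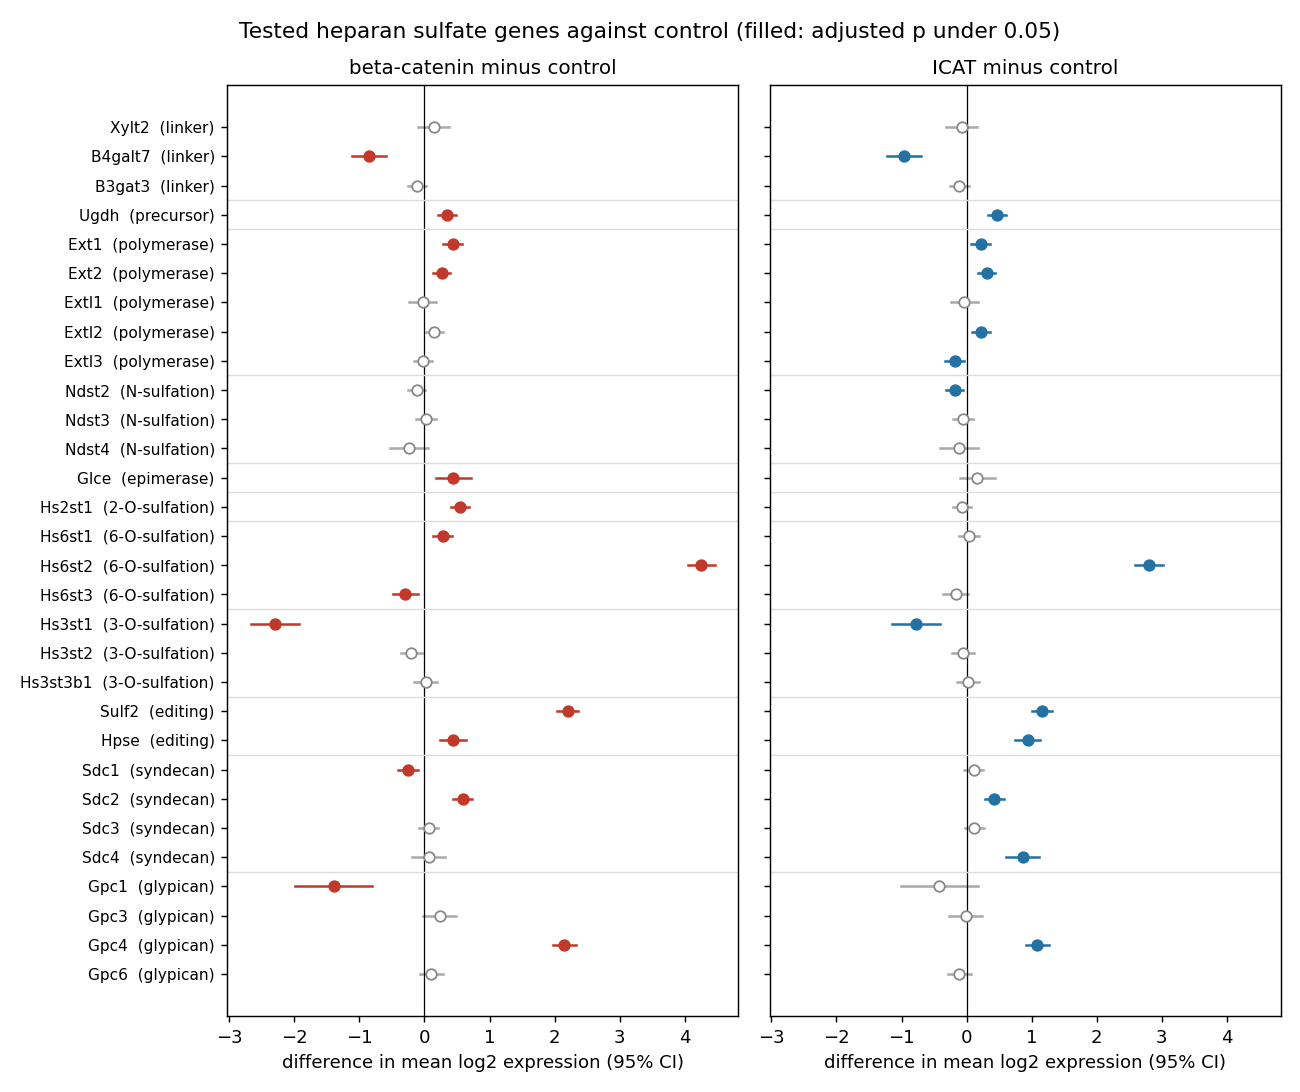
Difference in mean log2 expression from control (horizontal axis, with 95% confidence intervals) for the 30 tested heparan sulfate genes in beta-catenin cells (left) and ICAT cells (right), ordered by role. Filled points are called at an adjusted p under 0.05. Hs6st2 lies farthest to the right in both panels, at 4.26 and 2.80, and Hs3st1 farthest to the left in the left panel, at -2.30.

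Hs6st2, Sulf2, Gpc4 and Hs3st1 were called at 2-fold or more in beta-catenin cells and were called in all 3 comparisons, and their promoters are shown because these are the transcripts with the largest differences that were called throughout. Each sequence is the 250 bases before the most upstream start that the RefSeq promoter table on GRCm38.p6 lists for the gene, written 5′ to 3′ along the gene. RefSeq's gene table has its edge of the gene at that same start for Sulf2 and Gpc4. For Hs6st2 and Hs3st1, both on the minus strand, the start minus that edge is -103 and -961 bases in chromosome coordinates, so the edge lies farther upstream. Capitals mark TATAAA and GGGCGG (or CCGCCC, the same letters read from the other strand), motifs named for the TATA box and the GC box.
Hs6st2 (chrX:51681603-51681852, minus strand): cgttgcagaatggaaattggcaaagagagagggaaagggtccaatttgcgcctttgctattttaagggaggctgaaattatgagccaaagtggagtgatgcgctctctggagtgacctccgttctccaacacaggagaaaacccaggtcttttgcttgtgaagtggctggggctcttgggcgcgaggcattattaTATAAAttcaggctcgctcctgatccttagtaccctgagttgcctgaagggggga
Sulf2 (chr2:166155684-166155933, minus strand): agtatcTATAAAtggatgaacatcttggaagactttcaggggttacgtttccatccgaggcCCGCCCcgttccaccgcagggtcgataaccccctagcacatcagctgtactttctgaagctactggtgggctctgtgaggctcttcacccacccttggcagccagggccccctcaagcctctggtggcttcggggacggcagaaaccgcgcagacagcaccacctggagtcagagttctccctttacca
Gpc4 (chrX:52164924-52165173, minus strand): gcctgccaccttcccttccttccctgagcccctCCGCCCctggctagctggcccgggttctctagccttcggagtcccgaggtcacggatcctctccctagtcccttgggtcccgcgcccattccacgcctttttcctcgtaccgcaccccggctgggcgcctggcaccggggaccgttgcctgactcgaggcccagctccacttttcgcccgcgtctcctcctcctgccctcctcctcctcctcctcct
Hs3st1 (chr5:39644632-39644881, minus strand): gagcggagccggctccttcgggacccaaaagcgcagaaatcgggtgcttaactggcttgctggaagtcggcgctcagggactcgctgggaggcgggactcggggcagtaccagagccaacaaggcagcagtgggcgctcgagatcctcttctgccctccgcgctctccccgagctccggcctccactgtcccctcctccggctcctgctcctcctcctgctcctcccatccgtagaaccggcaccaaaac

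With the listed start counted as 0, TATAAA begins at -55 in Hs6st2 and at -244 in Sulf2, and the GC box letters begin at -189 in Sulf2 and at -217 in Gpc4. Neither motif is in the Hs3st1 window. A TCF/LEF site's core letters, CTTTGAA or CTTTGAT on either strand, were in 0 of the 30 windows used. These windows covered 26 of the listed genes, with any on chromosome 18 left out. No chromosome was left out of all 32851 windows of this length, of which 7.48% held those letters. TATAAA on either strand was in 2 of the 30 windows (6.67%), those of Hs6st2 and Sulf2 printed above, and in 12.4% of all windows. GGGCGG on either strand was in 18 of the 30 (60%) and in 32.7% of all windows. These letters are a description of the windows and say nothing of a factor. The search for TATAAA and GGGCGG was chosen after values had been seen.

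The linker and its precursor are made by enzymes on which heparan and chondroitin sulfate both depend. Of 3 linker genes tested, 1 was called in each line, in the lower direction. This count lies near the background of 34.9% of all genes called in beta-catenin and 37.2% in ICAT cells. B4galt7, the galactosyltransferase that adds the first galactose of the linker, had 7.39, 7.29 and 7.06 in beta-catenin cells, 6.85, 7.28 and 7.28 in ICAT cells and 8.08, 8.16 and 8.08 in control cells. All 6 arrays of the 2 lines lay below all control arrays, and the lines overlapped each other. On the log2 scale the difference was -0.86 ± 0.12 (SE) in beta-catenin cells and -0.97 ± 0.12 in ICAT cells (adjusted p = 0.000163 and 8.32e-05). The second probe set of B4galt7 gave -1.07 and -1.46 in the same order. Between the lines it gave a difference of 0.39 that was called over all probe sets (adjusted p = 0.0475), where the brightest one gave 0.11, with a 95% interval of -0.15 to 0.37.

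Xylt2, which adds the xylose that starts the chain, and B3gat3, which closes the linker with glucuronic acid, were called in no comparison, with log2 differences between -0.11 and 0.22, of which that of Xylt2 between the lines passed without ICAT replicate 3. Ugdh, which makes the UDP-glucuronic acid that feeds linker and chain, was called higher in both lines. Its levels were 12.10, 12.13 and 12.15 in beta-catenin cells, 12.18, 12.35 and 12.22 in ICAT cells and 11.80, 11.75 and 11.80 in control cells. Neither line overlapped control, and the log2 differences were 0.35 and 0.47 (adjusted p = 0.00119 and 0.000161).

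The chain itself is polymerised by the Ext1 and Ext2 proteins, which work as a complex. Ext1 was called 0.44 above control in beta-catenin cells and 0.22 above it in ICAT cells (adjusted p = 0.000344 and 0.0247), and 0.22 higher in beta-catenin than in ICAT cells (adjusted p = 0.0209). Its 3 groups did not overlap: 10.96 to 10.99 in beta-catenin, 10.67 to 10.85 in ICAT and 10.47 to 10.60 in control cells. Ext2 was called 0.26 above control in beta-catenin and 0.31 above it in ICAT cells (adjusted p = 0.00506 and 0.00182). Dimmer probe sets of Ext1 and Ext2 were not called in any comparison. With the mean of all probe sets of a gene, Ext2 gave 0.019 in beta-catenin cells and 0.10 in ICAT cells and was called in neither (adjusted p = 0.832 and 0.192), and Ext1 gave 0.24 in beta-catenin against control, still called. The Ext1 call in ICAT against control was lost in 6 of 19 alternatives, among them leaving out ICAT replicate 1 or control replicate 1 or 3. Its call between the lines was lost in 4, with the mean of its probe sets and without beta-catenin replicate 1 or 2 or ICAT replicate 2.

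Extl1, Extl2 and Extl3 are exostosin-like glycosyltransferases, of which Extl3 acts at the start of the chain. Extl2 was called in ICAT cells at 0.22 (adjusted p = 0.0144), and in beta-catenin cells it had a log2 difference of 0.15 (adjusted p = 0.0766) that passed without beta-catenin replicate 1. Without control replicate 2 the Extl2 call in ICAT cells was lost (highest adjusted p 0.0681). Its second probe set was called in beta-catenin cells at 0.37 (adjusted p over all probe sets = 0.00441) and gave 0.17 in ICAT cells without passing. Extl3 was called lower in ICAT cells at -0.18 (adjusted p = 0.0426), a call lost under 14 of 19 alternatives, among them leaving out any 1 array other than ICAT replicate 1. Extl1 differed by at most 0.03 in size between any groups and was not called.

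N-sulfation is the modification that opens the chain to the later ones. Of the tested genes Ndst2, Ndst3 and Ndst4, Ndst2 alone was called, in ICAT against control at -0.18 (adjusted p = 0.0356), and that call was lost under 9 of 19 alternatives, among them leaving out beta-catenin replicate 2 or 3, ICAT replicate 2 or any 1 control array. Ndst3 lay between 4.94 and 5.14 on the 9 arrays, at the filter's edge, so its groups have no sure order. Ndst4 lay between 5.58 and 6.22, with differences from control of -0.24 in beta-catenin and -0.12 in ICAT cells that did not pass (adjusted p = 0.203 and 0.57), the first of which passed without beta-catenin replicate 1.

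The next steps, epimerisation and 2-O sulfation, are carried out by 1 enzyme each, and both transcripts were called in beta-catenin against control. Hs2st1, the 2-O sulfotransferase, had 11.004, 10.99 and 10.998 in beta-catenin cells, 10.37, 10.29 and 10.48 in ICAT cells and 10.44, 10.41 and 10.50 in control cells. All beta-catenin arrays stood above all others, and ICAT and control arrays overlapped. Beta-catenin cells differed by a log2 value of 0.55 ± 0.065 from control and 0.62 ± 0.065 from ICAT cells (adjusted p = 4.62e-05 and 2.08e-05). ICAT cells were at -0.07 from control, with a 95% interval of -0.21 to 0.07. Of its 3 other probe sets, 2 were also called higher in beta-catenin against control, at 0.61 and 0.34, and the dimmest gave 0.27 without passing. Between the lines the mean of its probe sets gave 0.38, still called. Glce, the glucuronyl C5-epimerase, was called 0.45 above control in beta-catenin cells (adjusted p = 0.0133) and differed by 0.16 in ICAT cells (adjusted p = 0.343). That call was lost without beta-catenin replicate 3 and with the mean of its probe sets (highest adjusted p 0.0797). Without ICAT replicate 1, the difference in ICAT cells was 0.33 and was called (adjusted p = 0.00618).

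By brightest probe sets, a 6-O sulfotransferase held the largest difference of the list. Hs6st2, 1 of 3 6-O sulfotransferases, had 10.14, 10.04 and 9.98 in beta-catenin cells, 8.74, 8.37 and 8.69 in ICAT cells and 5.75, 5.75 and 5.89 in control cells. The 3 groups were far apart, with beta-catenin cells highest and ICAT cells between them and control. Expressed as a log2 difference, this was 4.26 ± 0.096 in beta-catenin and 2.80 ± 0.096 in ICAT cells, or 19.1-fold and 6.98-fold (adjusted p = 2.8e-10 and 2.13e-08). Beta-catenin cells were 1.45 above ICAT cells (adjusted p = 7.05e-07).

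The array carries 4 probe sets for Hs6st2, and they did not move alike. The second gave 2.84 in beta-catenin and 1.21 in ICAT cells, both called, although its control mean of 4.66 lay below 5, so its differences from control are at the low end of what the array resolves. A further one lay between 5.52 and 5.94 on all 9 arrays and was called in no comparison, with 0.16 and 0.10. The control arrays of the brightest probe set, at 5.75 to 5.89, lay within that range, so its fold values against control rest on a dim control level. The last was below 4 on all arrays and was not tested. With the mean of the 4 probe sets, the differences were 1.86 in beta-catenin cells and 1.07 in ICAT cells, and 0.79 between the lines, all still called. On that measure it ranked below Gpc4 (2.07) and Hs3st1 (-2.30) in size in beta-catenin against control. The size of the Hs6st2 difference thus moved by more than 1.5 times with the probe set, and its direction held in all 19 alternatives.

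The other 6-O sulfotransferases differed far less. Hs6st1 was called higher in beta-catenin cells, by 0.28 over control (adjusted p = 0.00754) and by 0.24 over ICAT cells (adjusted p = 0.0135). The second of these calls was lost without beta-catenin replicate 2. Hs6st3 lay between 4.95 and 5.43 on all arrays, close to the filter, and was called lower in beta-catenin cells at -0.29 (adjusted p = 0.0208). It did not keep that call when beta-catenin replicate 1 or 3 or control replicate 2 or 3 was left out (highest adjusted p 0.0907).

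3-O sulfation is the rarest modification of the chain and makes sites such as the one that binds antithrombin. Hs3st1, the sulfotransferase known for that site, had 6.07, 6.70 and 6.52 in beta-catenin cells, 7.73, 7.87 and 8.25 in ICAT cells and 8.85, 8.505 and 8.82 in control cells. The groups did not overlap and stood in the reverse order of Hs6st2, with beta-catenin cells lowest. Relative to control, the log2 difference was -2.30 ± 0.17 in beta-catenin and -0.78 ± 0.17 in ICAT cells (adjusted p = 1.16e-06 and 0.00373), a 4.92-fold and a 1.71-fold decrease. Beta-catenin cells were at -1.52 from ICAT cells (adjusted p = 3.33e-05).

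Hs3st2 and Hs3st3b1 were called in no comparison. Hs3st2 had a difference of -0.20 in beta-catenin cells (adjusted p = 0.0526) and passed the test in 6 of its alternatives, 2 of them leaving out ICAT replicate 1 or 3. Its 2 other probe sets lay between 4.86 and 5.64, with no call. Hs3st3b1 differed by 0.02 from control in both lines, with 95% intervals of -0.15 to 0.20.

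Editing outside the cell was represented by Sulf2 and Hpse, and both were called higher in both lines. Sulf2, a 6-O endosulfatase, had 11.05, 11.07 and 10.94 in beta-catenin cells, 9.88, 10.07 and 10.00 in ICAT cells and 8.79, 8.78 and 8.90 in control cells. Again the 3 groups were apart, with beta-catenin cells highest and control cells lowest. The log2 difference was 2.20 ± 0.071 in beta-catenin and 1.16 ± 0.071 in ICAT cells, or 4.59-fold and 2.23-fold (adjusted p = 2.6e-09 and 8.47e-07), and 1.04 between the lines (adjusted p = 8.93e-07). A second Sulf2 probe set gave 1.95 and 1.01, called in both. The dimmest, between 6.05 and 6.33, was called in no comparison, and with the mean of all 3 the differences were 1.38 and 0.71, still called. Sulf1, the other sulfatase of the family, had 3 probe sets, and its brightest lay between 4.17 and 4.43.

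Hpse, heparanase, had 7.22, 7.55 and 7.27 in beta-catenin cells, 7.89, 7.93 and 7.74 in ICAT cells and 6.94, 6.85 and 6.96 in control cells. Here ICAT cells were highest, beta-catenin cells stood between, and no group overlapped another. On the log2 scale the difference was 0.43 ± 0.09 in beta-catenin and 0.94 ± 0.09 in ICAT cells (adjusted p = 0.00289 and 1.61e-05), and -0.51 in beta-catenin against ICAT cells (adjusted p = 0.000913).

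**Figure D2:**
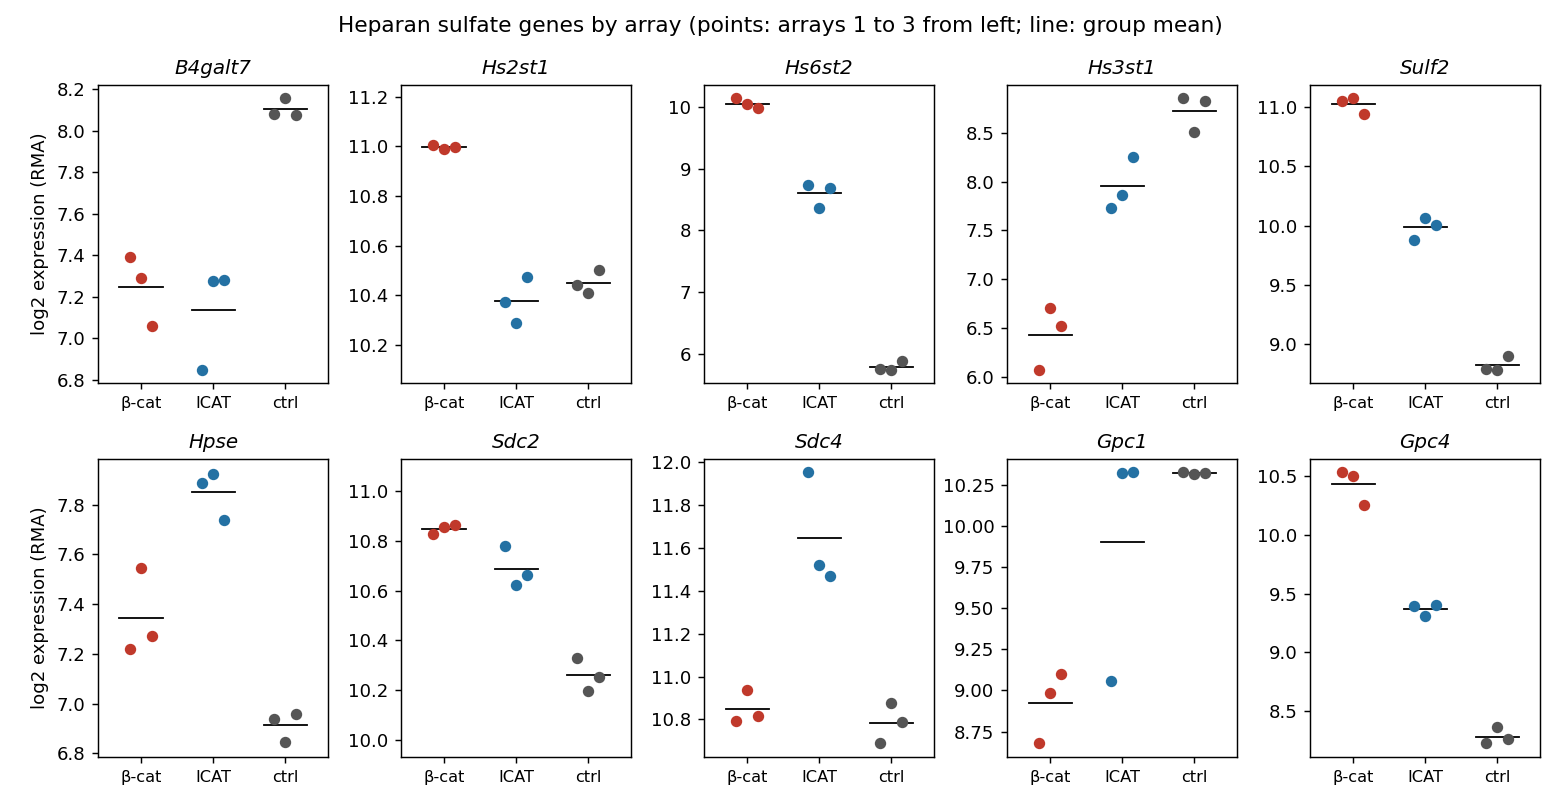
Log2 expression on each array (vertical axis, with its own range in every panel) of the 10 heparan sulfate genes called with at least a 1.5-fold difference in a comparison. Points are the 3 arrays of beta-catenin (β-cat), ICAT and control (ctrl) cells, and lines are group means. Hs6st2, Sulf2 and Gpc4 step down from beta-catenin over ICAT to control cells, Hs3st1 steps up, and for Gpc1 1 ICAT array at 9.06 lies apart from the other two.

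Syndecans carry heparan sulfate on a protein that spans the membrane, and the 4 members differed in different ways. Sdc2 had 10.83, 10.86 and 10.86 in beta-catenin cells, 10.78, 10.62 and 10.66 in ICAT cells and 10.33, 10.20 and 10.25 in control cells. Both lines lay above control throughout, and beta-catenin arrays lay above ICAT arrays. Expressed as a log2 difference, this was 0.59 ± 0.065 in beta-catenin and 0.43 ± 0.065 in ICAT cells (adjusted p = 2.75e-05 and 0.000349). Between the lines it was 0.16 (adjusted p = 0.0722), and 2 other probe sets of Sdc2 gave 0.37 and 0.29 there, both called over all probe sets (adjusted p = 0.00108 and 0.0154). The mean of its 4 probe sets gave 0.25 in ICAT cells, still called. The brightest was called between the lines without ICAT replicate 1.

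Sdc4 had 10.79, 10.94 and 10.82 in beta-catenin cells, 11.95, 11.52 and 11.47 in ICAT cells and 10.69, 10.88 and 10.79 in control cells. ICAT arrays stood above all others, with replicate 1 the highest, and beta-catenin and control arrays overlapped. Relative to control, the log2 difference was 0.86 ± 0.11 in ICAT cells (adjusted p = 0.000146) and 0.07 in beta-catenin cells, with a 95% interval of -0.19 to 0.32. Beta-catenin cells were at -0.80 from ICAT cells (adjusted p = 0.000208), and a second probe set gave -0.98.

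Sdc1, the main syndecan of epithelia, was called at -0.26 from control in beta-catenin cells (adjusted p = 0.0126) and at -0.37 from ICAT cells (adjusted p = 0.00133). ICAT cells were at 0.11 from control, with a 95% interval of -0.05 to 0.26. The call against control was lost without control replicate 2 (highest adjusted p 0.065), and none of the 3 other Sdc1 probe sets was called there. Sdc3, best known from the nervous system, was called in no comparison, with differences from control of 0.06 in beta-catenin and 0.12 in ICAT cells.

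Glypicans carry their chains on a protein held to the membrane by a lipid anchor and are known to modulate Wnt, Hedgehog and growth factor signals. Of 4 tested, 1 was called higher and 1 lower in beta-catenin cells (background 34.9% in either direction). In ICAT cells 1 was called higher (background 37.2%). Gpc4 had 10.54, 10.50 and 10.26 in beta-catenin cells, 9.40, 9.31 and 9.41 in ICAT cells and 8.22, 8.36 and 8.26 in control cells. The groups were apart in the order seen for Hs6st2 and Sulf2. The log2 difference was 2.15 ± 0.081 in beta-catenin and 1.09 ± 0.081 in ICAT cells, or 4.43-fold and 2.13-fold (adjusted p = 7.31e-09 and 2.64e-06), and 1.06 between the lines (adjusted p = 1.93e-06). The second Gpc4 probe set gave 1.98 in beta-catenin cells and 1.01 in ICAT cells, and 0.97 between the lines.

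Gpc1, a glypican often described in pancreatic cancer, had 8.68, 8.98 and 9.10 in beta-catenin cells, 9.06, 10.32 and 10.33 in ICAT cells and 10.32, 10.31 and 10.32 in control cells. All beta-catenin arrays lay below control, and ICAT replicate 1 lay with the beta-catenin arrays while ICAT replicates 2 and 3 lay with control. On the log2 scale the difference was -1.40 ± 0.27 in beta-catenin cells (adjusted p = 0.00176) and -0.42 in ICAT cells (adjusted p = 0.273). Without ICAT replicate 1 the ICAT difference was 0.0029. Beta-catenin cells were at -0.98 from ICAT cells (adjusted p = 0.0128), and this call was lost when ICAT replicate 2 or 3 was left out (highest adjusted p 0.0678). Gpc1 has 1 probe set on the array, so no second one bears on the outlying array.

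Gpc3 lay at 6.61 or below on all arrays and was called in no comparison, with differences of 0.24 in beta-catenin and -0.01 in ICAT cells. Without beta-catenin replicate 3 it passed in beta-catenin against control and between the lines. For Gpc6 the brightest probe set was not called, with 0.11 in beta-catenin and -0.11 in ICAT cells, but its probe sets disagreed. One of its 5 probe sets had 7.52, 7.40 and 7.48 in beta-catenin cells, 6.48, 5.94 and 6.27 in ICAT cells and 6.87, 6.68 and 7.001 in control cells. Its groups did not overlap, and it was called 0.61 above control in beta-catenin cells and at -0.62 from control in ICAT cells (adjusted p over all probe sets = 0.00266 and 0.00259). A dimmer one was called in ICAT cells at -0.42. Another was called at 0.67 in beta-catenin and at -0.34 in ICAT cells, but its ICAT and control means of 4.45 and 4.78 lay below 5 and have no sure order. With the mean of its 5 probe sets, Gpc6 gave 0.32 in beta-catenin and -0.30 in ICAT cells, both called (adjusted p = 0.00144 and 0.00238). Without ICAT replicate 3, its brightest probe set was called in ICAT against control and between the lines (adjusted p = 0.0349 and 0.00375).

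**Figure D3:**
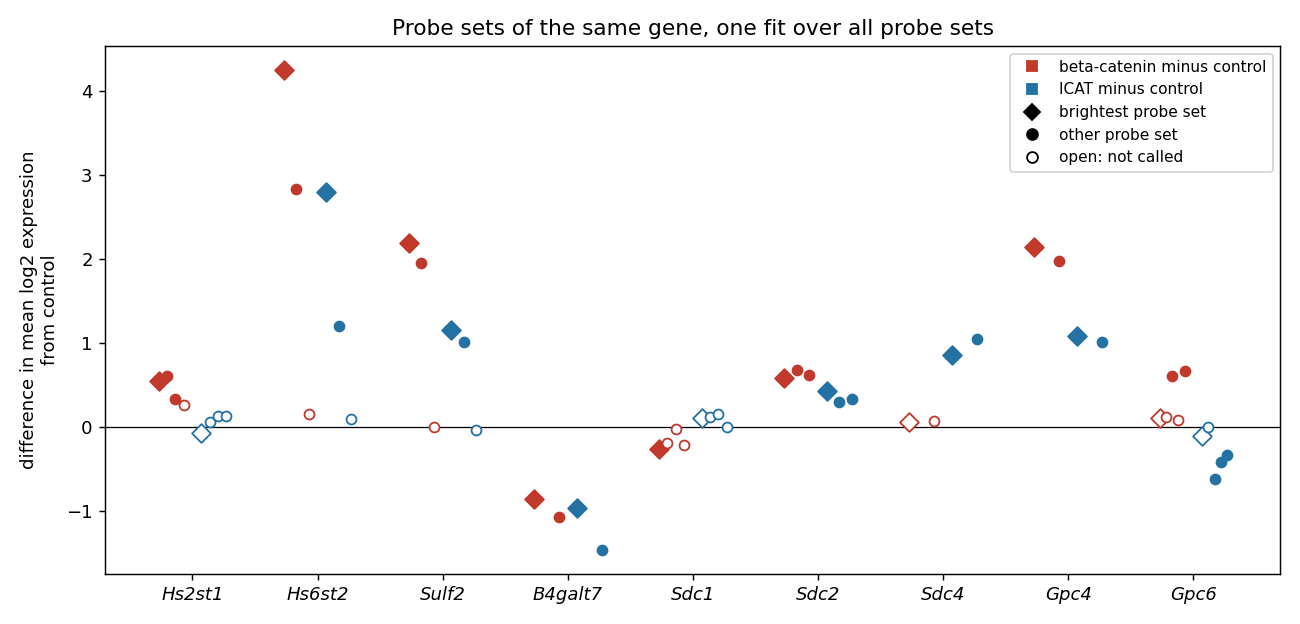
Log2 difference from control (vertical axis) of each tested probe set of 9 heparan sulfate genes, in beta-catenin cells (red) and ICAT cells (blue), from 1 fit over all probe sets. Diamonds are the brightest probe sets, circles the others, and open symbols are not called. The probe sets of B4galt7, Sdc2, Sdc4 and Gpc4 lie close together within a line or on the same side of 0 (untested ones are not drawn), whereas Hs6st2, Sulf2 and Gpc6 have probe sets at or near 0 beside called ones.

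Hs6st2, Gpc4 and Gpc3 lie in 1 stretch of the X chromosome in the RefSeq gene order on GRCm38.p6, with 2 protein-coding genes between Hs6st2 and Gpc4. This position was looked at after the values of Hs6st2 and Gpc4 had been seen. The genes between them were Usp26, at 0.28 in beta-catenin and 0.06 in ICAT cells, called in the first (adjusted p = 0.013), and 1700080O16Rik, called in neither. Usp26 had means below 5 in ICAT and control cells. Mbnl3, on the other side of Hs6st2, was called lower in both lines, at -1.15 and -1.27 (adjusted p = 1.96e-06 and 2.14e-06). Beyond Mbnl3, Rap2c was called at -0.18 in beta-catenin and at 0.23 in ICAT cells. Gpc3, next to Gpc4, was not called. Phf6 beyond it was called higher in beta-catenin cells at 0.47 (adjusted p = 0.00011) and differed by -0.03 in ICAT cells. Farther on, Hprt was called lower in ICAT cells at -0.22. Plac1 was called higher in both lines, at 0.27 in beta-catenin and 0.30 in ICAT cells (adjusted p = 0.0134 and 0.00671). Among the tested genes of the stretch other than Hs6st2 and Gpc4, the highest difference from control was this 0.47 of Phf6.

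**Figure D4:**
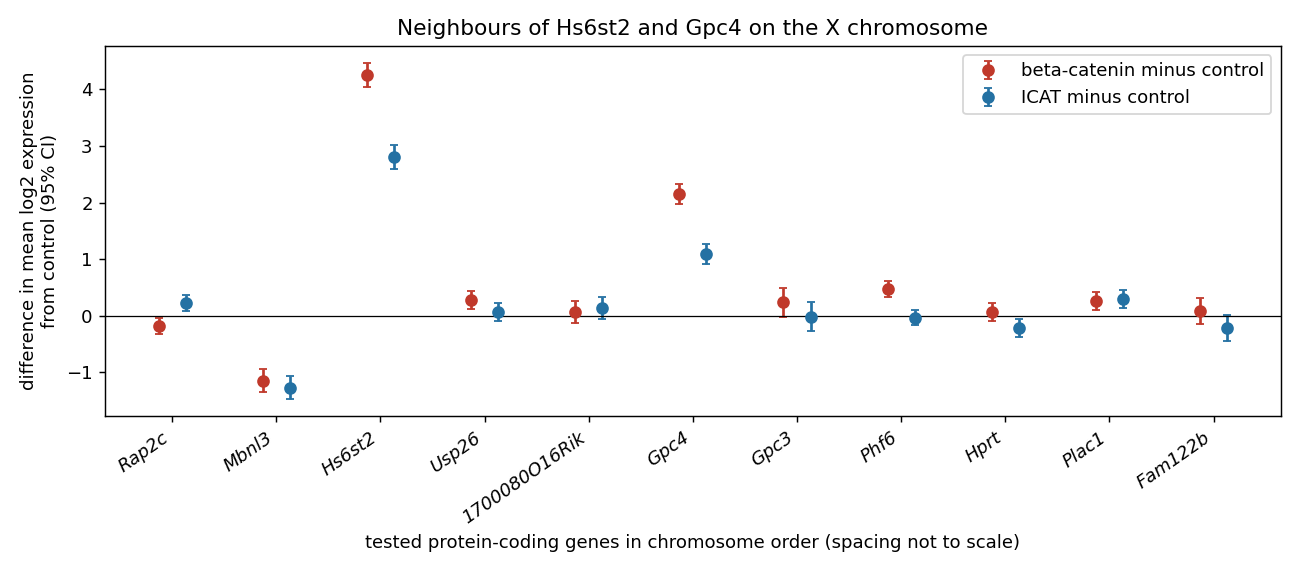
Difference in mean log2 expression from control (vertical axis, with 95% confidence intervals) of the tested protein-coding genes around Hs6st2 and Gpc4, in X chromosome order, for beta-catenin cells (red) and ICAT cells (blue). Hs6st2 at 4.26 and 2.80 and Gpc4 at 2.15 and 1.09 stand above the genes between and beside them, and Mbnl3 lies at -1.15 and -1.27.

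Genes that act with the heparan sulfate list were described by counts over 8 further lists. The background in brackets is the share of all genes tested that was called in either direction. No list was tested as a set. Among 5 tested synthesis genes outside the list, 1 was called higher and 2 lower in beta-catenin cells (background 34.9%). In ICAT cells, 1 was called higher (background 37.2%). Pxylp1, a phosphatase that removes phosphate from the linker's xylose, had 11.40, 11.44 and 11.27 in beta-catenin cells, 10.38, 9.64 and 9.34 in ICAT cells and 8.77, 8.75 and 8.66 in control cells. Its groups did not overlap, in the order of Hs6st2, Sulf2 and Gpc4, at 2.64 and 1.06 from control (adjusted p = 1.25e-06 and 0.00139). Fam20b, the kinase that adds this phosphate, was called at -0.35 in beta-catenin cells and had 0.01 in ICAT cells. B3galt6, which adds the second galactose of the linker, was called at -0.42 in beta-catenin cells and had -0.20 in ICAT cells (adjusted p = 0.0735), which passed without ICAT replicate 3. With the mean of each gene's probe sets, Pxylp1 gave 0.63 in ICAT cells, and Fam20b and B3galt6 both gave -0.20 in beta-catenin cells, all called.

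Of 14 tested genes for sulfate donor and sugar nucleotide supply, 2 were called higher and 4 lower in beta-catenin cells (background 34.9%). In ICAT cells, 6 were called higher and 2 lower (background 37.2%). Gfpt1, the entry enzyme of the hexosamine pathway, was called in ICAT cells at 0.81 and had 0.11 in beta-catenin cells. Ugp2, which makes UDP-glucose, was called in both, at 0.35 in beta-catenin and 0.64 in ICAT cells. Slc35b3, a carrier of the sulfate donor PAPS into the Golgi, was called at -0.49 in beta-catenin cells, and Bpnt1, which breaks down the spent donor, at -0.78 in ICAT cells. Gfpt1 by the mean of its probe sets gave 0.22 in ICAT cells, still called.

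Of 6 tested secreted heparan sulfate core proteins and part-time carriers, 4 were called lower in beta-catenin cells (background 34.9%). In ICAT cells, 1 was called higher and 1 lower (background 37.2%). Tgfbr3, the TGF-beta co-receptor betaglycan, was called in opposite directions, at -0.55 in beta-catenin and 0.89 in ICAT cells. Col18a1, which encodes collagen XVIII, was called at -0.88 and Cd44 at -0.67 in beta-catenin cells, and Nrp1 at -0.37 in ICAT cells. In 8 tested genes of lysosomal breakdown, 1 was called higher and 1 lower in beta-catenin cells (background 34.9%). In ICAT cells, 3 were called higher and 1 lower (background 37.2%). Ids, iduronate 2-sulfatase, was called at 0.66 in beta-catenin cells and 0.87 in ICAT cells, and Naglu at 0.70 in ICAT cells. Ids by the mean of its probe sets gave 0.19 and 0.28, still called. In 6 tested genes of release and trafficking, 1 was called higher and 2 lower in beta-catenin cells (background 34.9%). These were Adam10 at 0.19, and the sheddase gene Adam17 at -0.27 and the syntenin gene Sdcbp at -0.20, with 0.01, 0.12 and 0.14 in ICAT cells, which did not pass. The Adam10 call was lost in 7 of 19 alternatives and the Sdcbp call in 6. Leaving out beta-catenin replicate 1 or 2 or control replicate 1 or 3 ended both, control replicate 2 ended that of Adam10, and beta-catenin replicate 3 that of Sdcbp.

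Chondroitin and dermatan sulfate share the linker with heparan sulfate. Of 15 tested enzymes of these chains, 5 were called higher and 3 lower in beta-catenin cells (background 34.9%). In ICAT cells, 6 were called higher (background 37.2%). Csgalnact1, which adds the first N-acetylgalactosamine and so commits the linker to chondroitin, was called at -3.28 in beta-catenin cells (adjusted p = 5.64e-09) and had 0.19 in ICAT cells (adjusted p = 0.252). Without ICAT replicate 1 the ICAT difference was 0.34 and was called. Between the lines it was at -3.47 (adjusted p = 4.86e-09). Dse, the dermatan sulfate epimerase, was called higher in both, at 0.93 and 0.58, and Chst15 was called at -0.48 in beta-catenin and 0.87 in ICAT cells. The Chst15 call in beta-catenin cells was lost without beta-catenin replicate 1. Of 8 tested chondroitin and dermatan sulfate core proteins, 2 were called higher and 2 lower in beta-catenin cells (background 34.9%). In ICAT cells, 2 were called higher (background 37.2%). Bgn, biglycan, was called at 0.69 and 1.65, and Dcn, decorin, also among the mesenchymal markers above, at 1.11 in ICAT cells. By the mean of their probe sets, Bgn gave 0.40 in beta-catenin and Dcn 0.55 in ICAT cells, both called. Without ICAT replicate 1, Dcn gave 0.68 in ICAT cells.

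Of 21 tested growth factors that bind heparan sulfate and receptors that use it, 3 were called higher and 3 lower in beta-catenin cells. In ICAT cells, 6 were called higher and 2 lower. These counts lie below or near the background of 34.9% in beta-catenin and 37.2% in ICAT cells. Cxcl12, a chemokine held by heparan sulfate, was called in both, at 4.47 in beta-catenin and 1.55 in ICAT cells (adjusted p = 3.27e-07 and 0.00119). Hbegf, heparin-binding EGF-like growth factor, was called at -2.12 in beta-catenin cells and had -0.03 in ICAT cells. The receptor genes Fgfr1 and Fgfr2 were called in different lines, Fgfr1 at 1.23 in ICAT cells and Fgfr2 at 1.02 in beta-catenin cells. Between the lines, both differed, at -1.04 for Fgfr1 and 1.19 for Fgfr2 in beta-catenin against ICAT cells (adjusted p = 1.49e-05 and 7.55e-07). When each gene's probe sets were averaged, Cxcl12 gave 2.86 in beta-catenin cells and 0.77 in ICAT cells, Fgfr1 0.79 in ICAT cells and Fgfr2 0.53 in beta-catenin cells, all called. Between the lines, Fgfr2 then gave 0.63.

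**Figure D5:**
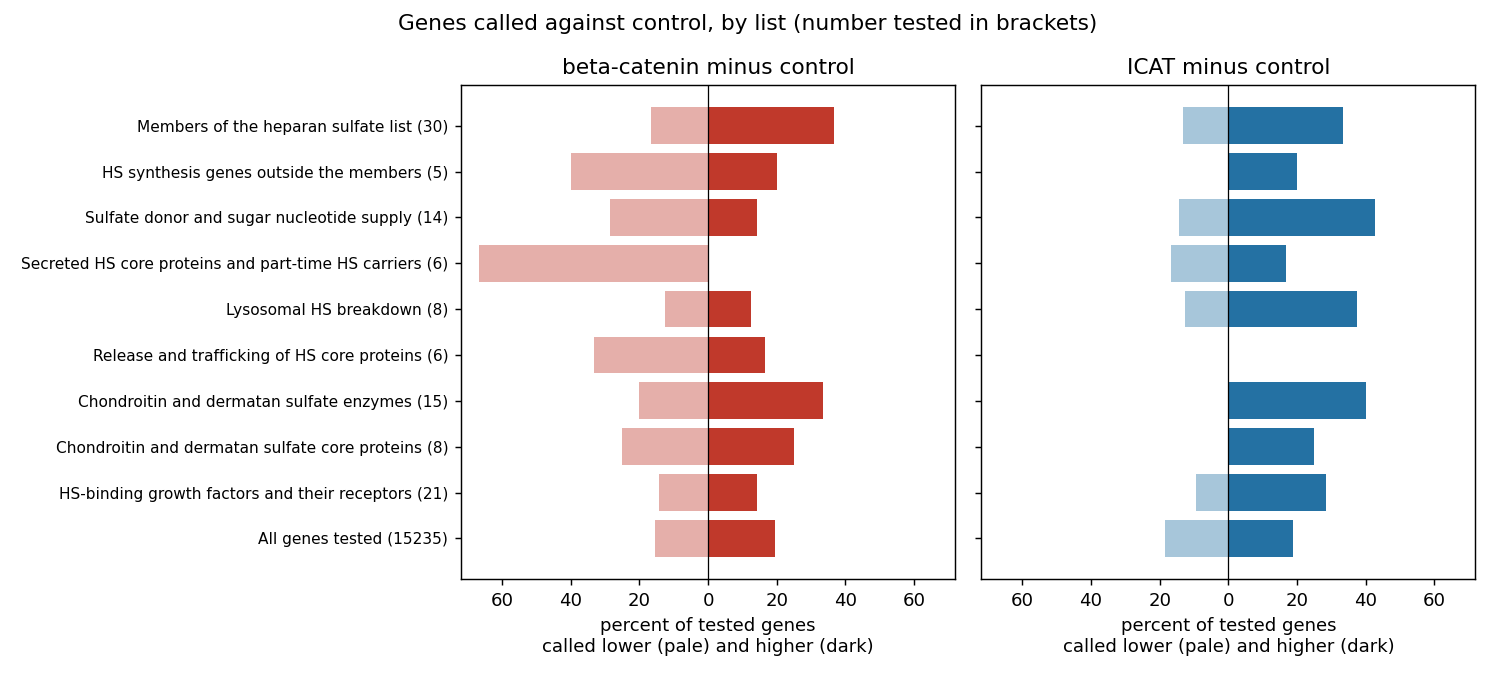
Percent of tested genes called lower (pale, to the left) and higher (dark, to the right) against control for the heparan sulfate list, 8 related lists and all 15235 genes tested, in beta-catenin cells (left) and ICAT cells (right). The heparan sulfate list has 36.7% called higher in beta-catenin and 33.3% in ICAT cells, where all genes have 19.6% and 18.7%. In the smaller lists, 1 gene moves a bar by many percent.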

How the data were processed

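Each deposited value is the log2 expression of a probe set on an array. The submitters' processing notes name RMA and affy as the tools behind it, and the sources used here do not give their versions. RMA normalizes arrays to a common distribution, so a shift of all genes one way would not be seen, and it compresses differences of dim probe sets. The number of arrays limits the precision. Slides and scan dates were not used here.

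Of 45037 probe sets, 34945 had 1 gene symbol, 932 several and 9160 none. The brightest single-gene probe set stood for each of 18193 genes. The listed genes' 74 probe sets were also read from a model over all probe sets. The 15235 genes with 3 or more arrays at a log2 expression of 5 or higher were fitted with limma 3.58.1 in R 4.3.3, in 1 model over all 9 arrays (6 residual and 5.03 prior degrees of freedom), two-sided, with Benjamini-Hochberg adjustment over all genes in each comparison, and called at an adjusted p under 0.05. With 3 arrays a group, 0.1 is the smallest p that exact permutation allows, and no such test was used. The model was checked on simulated data.

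The genes of the list, the related lists and the tests were chosen with earlier results of these data known. Listed genes called in a comparison with a log2 difference of at least 0.585 in size were described singly with every array, and of each related list up to 4 called genes with the largest difference from control. Alternatives were other filters, the mean of a gene's probe sets, all probe sets, array weights, an intensity trend, median centring, quantile normalization again, fits of 2 groups, a replicate block and leaving out each array. Promoters came from a RefSeq table on GRCm38.p6, from which windows of 26 of the listed genes were used.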

Additional observations from a re-analysis of the deposited data

Results flagged for a closer look

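A Gpc6 probe set other than the brightest was called in opposite directions against control in the 2 lines, at 0.61 in beta-catenin cells and at -0.62 in ICAT cells. The difference between the lines, 1.23 in beta-catenin against ICAT cells, was itself called by limma over all probe sets. The brightest Gpc6 probe set had 0.22 there and was not called (adjusted p = 0.0538). Tgfbr3 was called in opposite directions as well, and beta-catenin cells were at -1.44 from ICAT cells (adjusted p = 1.58e-06). Chst15, a chondroitin sulfotransferase, showed the same, at -1.35 between the lines (adjusted p = 1.15e-05). Its call in beta-catenin against control was lost without beta-catenin replicate 1 (highest adjusted p 0.0551). Papss1 of the sulfate donor list, not among the genes named from it, was also called in opposite directions, at -0.36 in beta-catenin and 0.35 in ICAT cells. Its ICAT and control arrays overlapped, and between the lines it was at -0.71 (adjusted p = 0.000617). Rap2c, near Hs6st2 on the X chromosome, had -0.18 and 0.23 against control and -0.41 between the lines, all called.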

How the results depend on the processing

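For the 30 tested genes of the list and the genes named from the related lists, no direction of a called difference reversed under any alternative run. Papss1 and the neighbours of Hs6st2 and Gpc4 outside the list were not followed through the alternatives. Of the 16 listed genes called in beta-catenin against control, 12 kept their call in every alternative, as did 9 of 14 in ICAT against control and 8 of 11 between beta-catenin and ICAT cells. Those that lost it in some were Ext2, Glce, Hs6st3 and Sdc1 in the first comparison, Ext1, Ext2, Extl2, Extl3 and Ndst2 in the second, and Ext1, Hs6st1 and Gpc1 in the third. Leaving out 1 array at a time gave 14 to 17, 11 to 14 and 9 to 13 listed genes called, and 4285 to 6218, 4587 to 6153 and 5182 to 6981 of all genes. With all 33545 probe sets tested in place of 15235 genes, 9947, 10605 and 11669 were called, against 5321, 5670 and 6155 genes. With array weights, 8324 genes (4136 higher and 4188 lower, against 2981 and 2340) and 21 listed genes were called in beta-catenin against control. The weights were highest for beta-catenin replicate 2 (3.81) and lowest for ICAT replicate 3 (0.217), and the cause was not tested. With the replicate number as a block, 5524, 5853 and 6389 genes and 16, 13 and 13 listed genes were called. The deviations of arrays from their group means correlated at -0.129 to 0.41 for arrays of the same number, not all above 0.1. Arrays of different numbers had -0.416 to 0.333. These overlapping ranges do not settle whether the numbers pair the arrays. No label says that they do, and the main model did not pair them. Signal near the filter limits Hs6st3, Ndst3 and the dim probe sets of Hs6st2 and Gpc6. A dim control level also limits the size of the differences from control of the brightest Hs6st2 probe set.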
